A study of Mus musculus with 12 samples.

Results

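The genes described here are 39 genes of the cell cycle and of proliferation, out of 55471 genes in the count table. They were listed by name for their known roles and comprise the proliferation marker Mki67, 8 cyclins and kinases of the G1 phase, 10 genes of DNA replication, 14 genes of the G2 phase and mitosis, and 6 genes that restrain the cycle or act in the Rb and E2f switch (Cdkn1a, Cdkn1b, Cdkn1c, Cdkn2c, Rb1 and E2f1). All 39 passed the filter on low counts and were tested.

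The cells were primary hippocampal neurons of wild-type (WT) mice, prepared at embryonic day 17 from CD1 litters of mixed sex. Both groups received antisense gapmers packaged into lipid nanoparticles at day in vitro (DIV) 7, and RNA was taken at DIV 10. A gapmer is a short modified oligonucleotide that directs RNase H to cut the RNA it pairs with. Cells of the 6 control libraries were given control gapmers without a known target, and those of the 6 *Neuid* KD libraries were given gapmers against the long non-coding RNA *Neuid*. Each group rests on a single gapmer. No agent that removes dividing cells is named in the sources used here, and the labels do not say which of the libraries came from separate cultures or preparations, so that p-values measure the spread between these libraries, which may be technical.

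A dividing cell passes from G1 through DNA replication to G2 and mitosis. Cyclins activate cyclin-dependent kinases at each step, the kinases of G1 phosphorylate Rb, and Rb then releases E2F factors that turn on replication genes. Inhibitors of the Cip/Kip and INK4 families hold the kinases back. Neurons are post-mitotic, so that transcripts of the replication and mitosis machinery in a hippocampal culture are usually attributed to glial and progenitor cells that still divide, whereas Ccnd2, Cdk4, Cdkn1b and Rb1 are also transcribed in cells that have left the cycle.

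Many cell cycle genes carry short recognised letters close upstream of their start. The promoters of 3 genes show these letters, namely Mki67 and, of the genes that passed the test between the groups, Mcm6 and Cdkn2c, for which a window held E2F letters. For Cdkn2c, which has 2 annotated starts, the window with the letters is shown. They are the 250 bases before the annotated start, from RefSeq on GRCm38.p6, read 5′ to 3′ on the gene's own strand. Capitals mark 3 kinds of letters. The E2F letters were searched in 4 forms, of which TTCCCGC was the first form, TTCGCGC the second form, TTGCCGC the third form and TTGGCGC the last. The cell cycle genes homology region (CHR) was searched as TTTGAA and in the variant form TTCGAA, and the CCAAT box as CCAAT. Both strands were searched, so that matches of 1 kind on opposite strands may overlap.
Mki67, chr7:135716380-135716629, minus strand: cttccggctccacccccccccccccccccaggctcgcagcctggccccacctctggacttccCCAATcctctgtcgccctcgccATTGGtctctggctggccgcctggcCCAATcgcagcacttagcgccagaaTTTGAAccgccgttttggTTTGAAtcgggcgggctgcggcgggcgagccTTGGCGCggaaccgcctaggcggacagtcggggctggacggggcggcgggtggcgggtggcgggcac
Mcm6, chr1:128359706-128359955, minus strand: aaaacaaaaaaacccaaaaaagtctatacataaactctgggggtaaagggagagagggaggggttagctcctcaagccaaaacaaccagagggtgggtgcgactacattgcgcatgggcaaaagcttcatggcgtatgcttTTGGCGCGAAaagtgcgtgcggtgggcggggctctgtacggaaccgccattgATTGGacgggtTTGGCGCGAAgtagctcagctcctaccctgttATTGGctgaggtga
Cdkn2c, chr4:109666757-109667006, minus strand: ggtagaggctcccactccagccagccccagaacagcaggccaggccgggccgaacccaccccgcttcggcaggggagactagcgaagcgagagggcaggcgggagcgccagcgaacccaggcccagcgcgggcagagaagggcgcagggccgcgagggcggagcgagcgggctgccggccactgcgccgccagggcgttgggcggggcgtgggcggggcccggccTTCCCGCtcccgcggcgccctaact
The window of Mki67 held all 3 kinds of letters. That of Mcm6 held 4 E2F matches, which overlap in pairs on opposite strands, and 2 CCAAT boxes. The printed window of Cdkn2c held 1 E2F match and neither of the others, and its second window held none of the 3.

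Of the 39 genes, 31 were matched to 35 promoter windows (some genes have 2 starts), and Ccna2, Ccnd1, Ccnd2, Ccne2, Mcm4, Aurkb, Cdkn1c and Rb1 were not matched. E2F letters stood in 11 of the 35 windows (31.4%), against 7.89% of all 32851 windows of 27025 genes. The CCAAT box stood in 24 (68.6%, against 33.8%) and the CHR in 8 (22.9%, against 17.1%). By role, E2F letters were found in 6 of 10 replication windows and in 2 of 12 mitosis windows, CCAAT in 9 of 10 and 11 of 12, and the CHR in 2 of 10 and 5 of 12. Both windows of Cdkn1a held none of the 3. A match is a description of the letters and does not show that a factor was bound.

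RNA was read as counts per gene, and the totals ran from 18002585 to 30914714 counts in control and from 11152556 to 30573480 counts in *Neuid* KD. The targeted RNA, *Neuid* (Gm10419), was at 28.4 ± 2.03 CPM in control against 8.05 ± 1.13 CPM after knockdown (SD, n = 6 per group; CPM are counts scaled to the TMM-normalised size of each library), and the groups did not overlap. Across all 19578 tested genes, edgeR's quasi-likelihood test called 1708 genes at a Benjamini-Hochberg adjusted p under 0.05 (8.72%), of which 1235 (6.31%) were higher and 473 (2.42%) lower in *Neuid* KD. Libraries differed in background reads, measured as the summed level of 1778 chemosensory receptor genes, which ran from 26.0 to 653 CPM in control and from 26.9 to 604 CPM after knockdown. At least 100 CPM were found in 4 control and 3 *Neuid* KD libraries. Per kilobase of exon this background was between 0.00452 and 0.114 CPM, and every one of the 39 genes lay above it in each library.

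The transcripts of the cell cycle were present in every library. On the scale of CPM per kilobase of exon, which allows genes to be compared, control levels ran from 0.337 ± 0.0761 for Cdk6 to 33.0 ± 2.72 for Ccnd2 (SD, n = 6). After Ccnd2 came Cdkn1b at 19.6 ± 0.826, Cdk4 at 12.1 ± 0.759, Mki67 at 7.48 ± 0.342 and Ccnd1 at 7.37 ± 0.748, and the last 2 differed by less than their SDs. Mcm6, the highest replication gene, was at 6.60 ± 0.467 and Top2a, the highest mitosis gene, at 5.63 ± 0.311. The mitotic cyclin Ccnb1 was among the lowest, at 0.351 ± 0.0858. The fewest counts were those of Cdkn1c, with 11 to 43 per library.

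**Figure D1:**
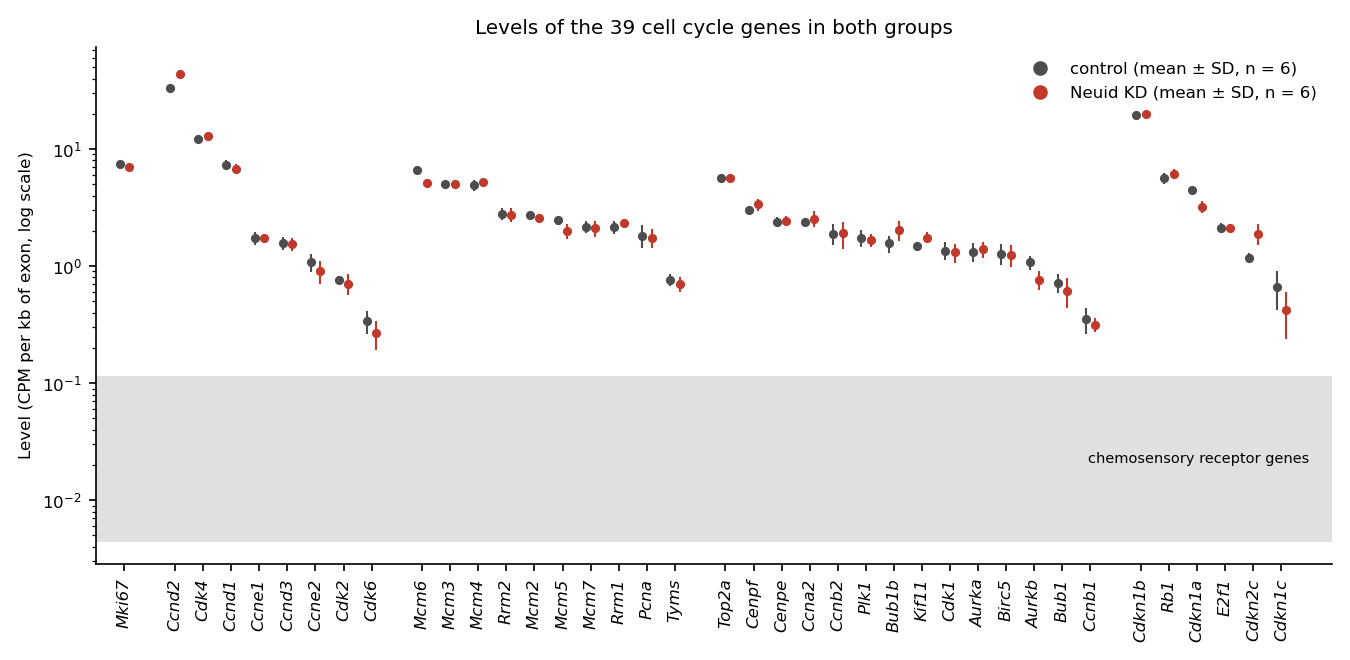
Level of each of the 39 genes in CPM per kilobase of exon (log scale), as mean ± SD over 6 control (grey) and 6 *Neuid* KD (red) libraries, grouped by role and ordered by control level. The grey band spans the chemosensory receptor genes over all libraries (0.00452 to 0.114), which every gene exceeds. Ccnd2 is the highest gene, and most pairs of points lie at the same height.

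With *Neuid* knocked down, 4 of the 39 genes were called (10.3%, where 8.72% of all tested genes were called): the D-type cyclin gene Ccnd2 and the INK4 inhibitor gene Cdkn2c rose, and the replicative helicase gene Mcm6 and the Cip/Kip inhibitor gene Cdkn1a fell. Thus 2 of 39 were higher, beside 6.31% of all tested genes, and 2 of 39 lower, beside 2.42%. The median log2 fold change over the 39 genes was -0.03, and over all tested genes it was also -0.03. Positive values were found for 15 of the genes and negative values for 24, compared with 8698 and 10880 of all tested genes. With an absolute log2 fold change above 0.5 required as well, 1 of 39 remained, Cdkn2c, beside 3.23% of all tested genes. The CPM of control and *Neuid* KD libraries did not overlap for 4 of 39 (10.3%, beside 5.7% of all tested genes), and these were the 4 called genes. With so few calls, nothing particular to the 39 genes was read from these shares.

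For 28 of the 39 genes (71.8%) the 95% confidence interval of the log2 fold change lay within -0.5 and 0.5, beside 52% of all tested genes. Of the 35 genes that were not called, 27 had an interval within these bounds and 18 within -0.3 and 0.3. The median control level was 9.58 CPM among the 39 genes and 7.32 CPM among all tested genes. These intervals hold for this fit. With the counts adjusted for GC content and gene length, which also rescaled each library, the standard errors of the 39 genes were 1.90 times as large in the median. In bulk RNA, fewer cells of a dividing type and less of the transcript per cell cannot be told apart.

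**Figure D2:**
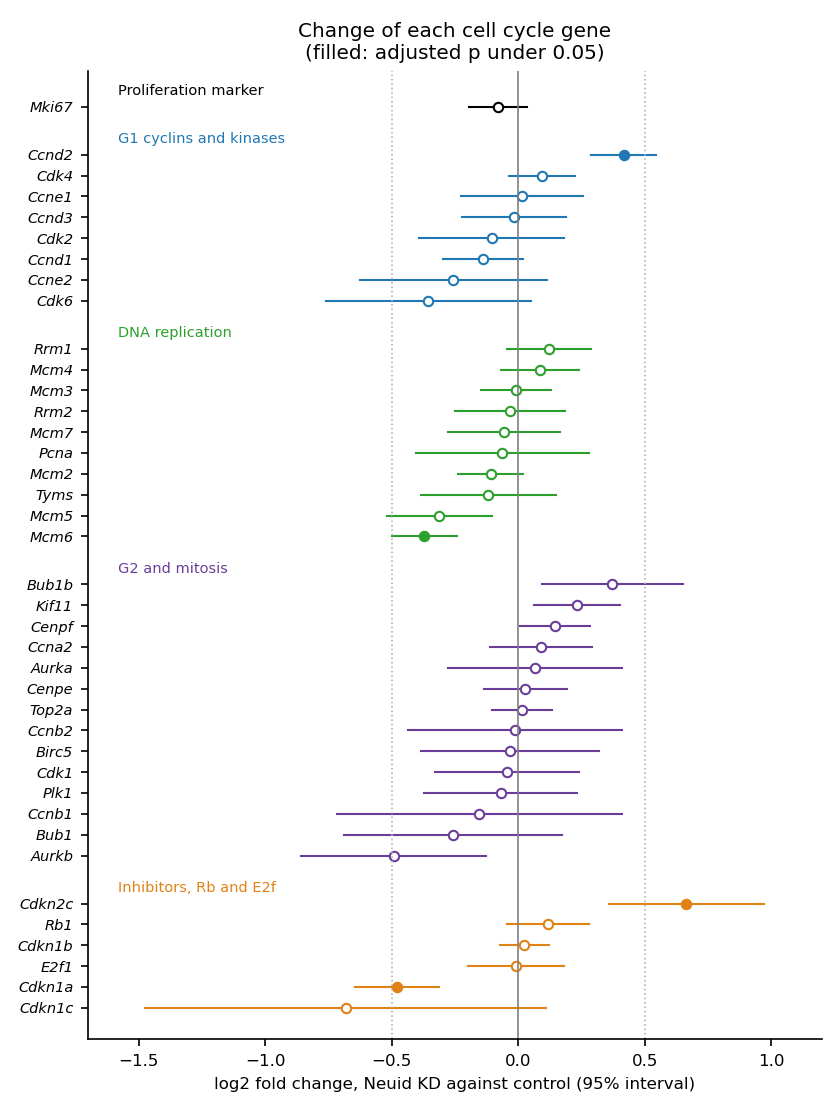
Log2 fold change of each gene, *Neuid* KD against control, with its 95% interval from edgeR's quasi-likelihood fit (6 libraries per group). Filled points mark the 4 genes with an adjusted p under 0.05 (Ccnd2 and Cdkn2c higher, Mcm6 and Cdkn1a lower), and the dotted lines stand at -0.5 and 0.5. The interval of Cdkn1c is the widest.

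Mki67 encodes Ki-67, which coats mitotic chromosomes and is the usual histological marker of cells in cycle. The gene (ENSMUSG00000031004) lies on chromosome 7 from 135689784 to 135716361 on the minus strand of GRCm38. Control libraries held 72.5 to 81.6 CPM (median 74.2) and *Neuid* KD libraries 66.1 to 78.2 CPM (median 70.0), so that the groups overlapped. The log2 fold change was -0.08 (95% interval -0.20 to 0.03, edgeR's quasi-likelihood test, adjusted p = 0.507). Among the 7 libraries with at least 100 CPM of background reads, Mki67 averaged 73.4 CPM in control and 74.0 CPM after knockdown. Among the 5 libraries under it, 2 control libraries at 76.4 and 81.6 CPM stood above 3 *Neuid* KD libraries at 66.1 to 72.4 CPM (log2 fold change -0.23, adjusted p = 0.0044 by the same test within these libraries). Over the settings that kept more than these 5 libraries the gene was not called. Whether the background reads had a part in this was not tested.

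Among the G1 cyclins and kinases, which drive cells towards replication, 1 of 8 rose and 7 did not pass the test, and the median log2 fold change was -0.06. Ccnd2 (ENSMUSG00000000184, chromosome 6 from 127125162 to 127152193, minus strand) encodes cyclin D2, a partner of Cdk4 and Cdk6 that is prominent in neural progenitors. It ranged from 267 to 339 CPM in control (median 309) and from 365 to 441 CPM in *Neuid* KD (median 420). Every *Neuid* KD library exceeded every control library. Mean levels were 310 ± 25.6 and then 414 ± 27.5 CPM (SD, 6 libraries each), and the log2 fold change was 0.42 (standard error 0.0613, edgeR's quasi-likelihood test, adjusted p = 0.00016), and the means were 297 against 396 CPM within the libraries of higher background and 336 against 432 CPM within those of lower background. Ccnd2 overlaps Gm43126 and 9330179D12Rik on the opposite strand, and the strand setting of the counting is not given in the sources used here. Of the 39 genes, 18 overlap another annotated gene, Mki67 and Top2a among them. For 17 such a gene lies on the opposite strand and for 5 on the same strand.

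The other D-type cyclin genes, Ccnd1 and Ccnd3, had log2 fold changes of -0.14 (95% interval -0.30 to 0.02) and -0.02 (-0.22 to 0.19). Their kinases Cdk4 and Cdk6 were at 0.09 (-0.04 to 0.22) and -0.35 (-0.76 to 0.05). Cyclin E, which starts replication together with Cdk2, is encoded by Ccne1 (0.02, from -0.22 to 0.26) and Ccne2 (-0.26, from -0.63 to 0.11), and Cdk2 itself was at -0.11 (-0.39 to 0.18). None of these 7 passed the test. Because Ccnd2 is so abundant, the summed level of the 8 genes went from 416 ± 26.8 CPM to 517 ± 25.4 CPM. The sum of all 39 genes was 963 ± 38.1 and 1062 ± 29.7 CPM, and without Ccnd2 it was 653 ± 18.1 and 648 ± 26.4 CPM (SD, n = 6 per group).

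Of the 10 replication genes, 1 fell and 9 did not pass the test, with 8 values below 0 and a median log2 fold change of -0.06. Mcm6 (ENSMUSG00000026355, chromosome 1 from 128331590 to 128359664, minus strand) encodes a subunit of the MCM2-7 helicase that unwinds DNA at the fork, and its promoter is among those printed above. It was at 27.8 to 33.7 CPM in control (median 31.1) and at 22.0 to 26.5 CPM in *Neuid* KD (median 23.7), without overlap. Its mean dropped from 30.8 ± 2.18 CPM to 23.8 ± 1.71 CPM (SD over 6 libraries), which gave a log2 fold change of -0.37 (SE 0.0605, edgeR's quasi-likelihood test, adjusted p = 0.00045). Within the libraries of higher background the means were 30.4 and 23.3 CPM, and within those of lower background 31.6 and 24.2 CPM.

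The subunits of the same helicase spread on both sides of 0. Mcm5 was at -0.31 (95% interval -0.52 to -0.10, adjusted p = 0.062 by edgeR's quasi-likelihood test), with overlapping groups of 8.35 to 10.8 CPM and 6.25 to 9.35 CPM, and it passed the threshold under 6 of 14 other settings. Mcm2 was at -0.11 (-0.24 to 0.02), Mcm7 at -0.06 (-0.28 to 0.17), Mcm3 at -0.01 (-0.15 to 0.13) and Mcm4 at 0.09 (-0.07 to 0.24). The 6 subunits act in equal amounts in the complex. The intervals of Mcm2, Mcm3, Mcm4 and Mcm7 did not reach the estimate of Mcm6, but a difference between the genes was not tested. The sliding clamp gene Pcna was at -0.06 (-0.41 to 0.28). The genes for nucleotide supply were at 0.12 (-0.04 to 0.29) for Rrm1 and -0.03 (-0.25 to 0.18) for Rrm2, the subunits of ribonucleotide reductase, and at -0.12 (-0.39 to 0.15) for the thymidylate synthase Tyms. The summed level of the 10 genes was 146 ± 6.79 CPM in control, against 138 ± 6.36 CPM after knockdown (SD, n = 6 per group).

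Of the 14 genes of G2 and mitosis, 0 passed edgeR's quasi-likelihood test after adjustment, as with DESeq2 and limma-voom, and 4 had an unadjusted p under 0.05, with 7 values above 0, 7 below and a median log2 fold change of 0.00. Over all 39 genes, 9 (23.1%) had an unadjusted p under 0.05, beside 18.8% of all tested genes. Top2a (ENSMUSG00000020914, chromosome 11 from 98992943 to 99024189, minus strand), the topoisomerase that untangles sister chromatids, ranged from 45.8 to 54.2 CPM in control (median 50.9) and from 45.4 to 55.8 CPM in *Neuid* KD (median 52.2). The ranges lay almost on each other, and the log2 fold change was 0.01 (95% interval -0.10 to 0.13, edgeR's quasi-likelihood test, adjusted p = 0.941). Cdk1, the kinase of mitotic entry, was at -0.05 (-0.33 to 0.24), and its cyclins were at 0.09 (-0.11 to 0.29) for Ccna2, -0.15 (-0.72 to 0.41) for Ccnb1 and -0.01 (-0.44 to 0.41) for Ccnb2.

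The 4 mitosis genes with an unadjusted p under 0.05 pointed in different directions. Above 0 were the spindle checkpoint gene Bub1b at 0.37 (adjusted p = 0.104) and the spindle motor gene Kif11 at 0.23 (adjusted p = 0.096). The kinetochore gene Cenpf was also above 0, at 0.15 (adjusted p = 0.224). Below 0 was Aurkb, the kinase of the chromosomal passenger complex, at -0.49 (adjusted p = 0.099, all 4 by edgeR's quasi-likelihood test). With 1 or 2 RUVs factors, a correction of the kind the study used, or with the background reads as a covariate, Bub1b and Kif11 were called, with adjusted p of 0.0090 to 0.012 and of 0.039 to 0.047 in edgeR. Birc5, which encodes survivin in the same complex as Aurkb, was at -0.03 (95% interval -0.39 to 0.32). The remaining genes were Aurka at 0.07 (-0.28 to 0.41), Plk1 at -0.07 (-0.37 to 0.23), the checkpoint kinase gene Bub1 at -0.26 (-0.69 to 0.17) and the kinetochore motor gene Cenpe at 0.03 (-0.13 to 0.19). The summed level of the 14 genes was 175 ± 3.19 CPM in control, against 183 ± 15.0 CPM after knockdown (SD, n = 6 per group), the latter from 162 to 208 CPM.

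Of the 6 inhibitors and members of the Rb and E2f switch, 1 rose, 1 fell and 4 did not pass the test. Cdkn1a (ENSMUSG00000023067, chromosome 17 from 29090976 to 29100727, plus strand) encodes p21, a target of p53 that stops the cycle after DNA damage. It was at 14.8 to 18.1 CPM in control (median 15.9) and at 9.63 to 13.2 CPM in *Neuid* KD (median 11.5). All *Neuid* KD libraries were below all control libraries, with means of 16.0 ± 1.19 and 11.5 ± 1.33 CPM (SD over 6 libraries) and a log2 fold change of -0.48 (SE 0.0779, edgeR's quasi-likelihood test, adjusted p = 0.00044). Within the libraries of higher background the means were 16.3 and 11.4 CPM, and within those of lower background 15.4 and 11.6 CPM. Cdkn1a overlaps an unconfirmed transcript, AC167363.2, on the opposite strand. Of the p53 pathway genes listed beside it, only Trp53 and Mdm2 are given, chosen after their values were seen. Trp53 was at -0.15 (95% interval -0.33 to 0.04) and Mdm2 at 0.13 (-0.0040 to 0.26), and neither passed the test. The activity of p53 was not tested.

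Cdkn2c (ENSMUSG00000028551, chromosome 4 from 109660876 to 109667189, minus strand) encodes p18, which binds Cdk4 and Cdk6. It was at 2.82 to 3.64 CPM in control (median 3.10) and at 3.98 to 6.38 CPM in *Neuid* KD (median 4.89), without overlap. From a mean of 3.18 ± 0.306 CPM it rose to 5.09 ± 1.05 CPM (SD over 6 libraries), which was 158% of the control level in the fit, and the log2 fold change was 0.66 (SE 0.145, edgeR's quasi-likelihood test, adjusted p = 0.0060). It rested on 58 to 122 counts per library. Its means were 3.11 and 5.50 CPM within the libraries of higher background and 3.32 and 4.67 CPM within those of lower background, where the log2 fold change of 0.45 did not pass the test (adjusted p = 0.214 by the same test, from 0.0010 to 0.214 over its alternatives).

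Cdkn1b, which encodes p27 and is high in post-mitotic neurons, held 83.7 to 94.0 CPM in control (median 89.7) and 86.4 to 96.2 CPM in *Neuid* KD (median 91.3). The groups overlapped over most of their range, and its log2 fold change of 0.02 had an interval from -0.07 to 0.12. The retinoblastoma gene Rb1 was at 0.12 (-0.04 to 0.28) and E2f1, which Rb restrains, at -0.01 (-0.20 to 0.18). Cdkn1c, which encodes p57, was at -0.68 with the widest interval of the 39 genes (-1.47 to 0.11), on 11 to 43 counts per library and a control level of 1.36 ± 0.495 CPM (SD, n = 6). The summed level of the 6 genes was 151 ± 7.18 CPM in control, against 152 ± 6.76 CPM after knockdown (SD, n = 6 per group).

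**Figure D3:**
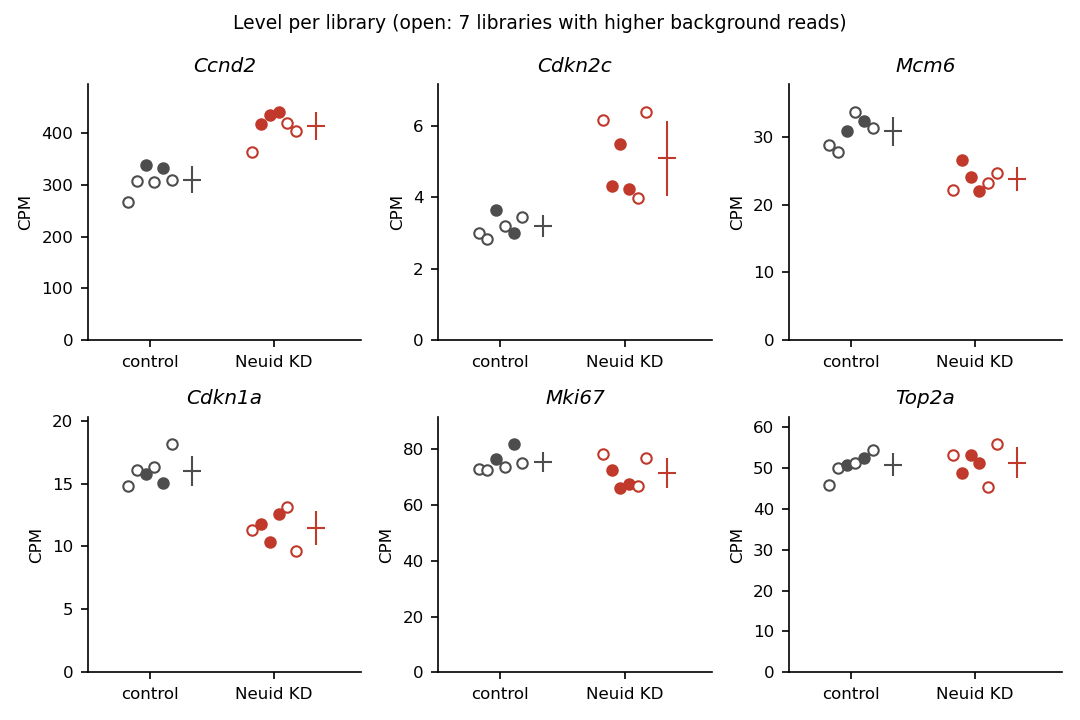
Level of the 4 called genes and of Mki67 and Top2a in each library (CPM), with mean ± SD beside the 6 libraries of each group. Open points are the 7 libraries whose background reads came to at least 100 CPM. The groups do not overlap for Ccnd2, Cdkn2c, Mcm6 and Cdkn1a, with filled and open points on the same side, whereas they overlap for Mki67 and Top2a.

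All 4 calls were lost when GC content and gene length were adjusted for and the libraries rescaled. The counts of each library were adjusted for GC content and gene length by a fit to the log counts. That fit also replaced the TMM scale by a scale that weighs genes alike, those of few counts included. The parts of the adjustment were not run apart. The log2 fold changes were then 0.40 for Ccnd2, -0.32 for Mcm6, -0.42 for Cdkn1a and 0.71 for Cdkn2c. Their standard errors grew to 0.171, 0.227, 0.203 and 0.209. By edgeR's quasi-likelihood test 0 of the 39 genes were called, with 4 at an unadjusted p under 0.05 (Ccnd2, Cdkn2c, Bub1b and Cdk6). Of all 19578 tested genes 345 were called, against 1708 in the main fit. Nothing particular to the 39 genes was read from this loss of calls. This adjustment was run with edgeR alone. The adjusted p of the 4 genes then lay between 0.142 for Cdkn2c and 1.00 for Mcm6 by the same test, and the cause was not tested. In each of the 12 fits that left out 1 library, all 4 genes were called.

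A wider list held 144 other cell cycle genes. Of the 143 that were tested (Cks2 had too few counts), 2 rose and 3 fell, which is 3.50%, beside 8.72% of all tested genes, and the median log2 fold change was -0.06. The genes that rose were E2f4, a repressor E2F of resting cells, from 22.6 ± 1.60 to 27.0 ± 1.15 CPM (log2 fold change 0.26, adjusted p = 0.0053), and E2f6, a further repressor E2F, from 12.8 ± 1.35 to 16.9 ± 2.40 CPM (0.41, adjusted p = 0.0083). Neither overlapped between the groups. Over the 143 genes the groups did not overlap for 3 (2.1%), 1 of them a mitosis gene, beside 5.7% of all tested genes. The genes that fell were Plk4, the kinase of centriole duplication, from 9.54 ± 1.08 to 7.45 ± 0.558 CPM (-0.36, adjusted p = 0.012), Cdc7, the kinase that fires replication origins, from 10.4 ± 0.881 to 8.24 ± 0.724 CPM (-0.32, adjusted p = 0.013), and the mitotic kinesin gene Kif20b, from 9.41 ± 0.746 to 7.58 ± 1.05 CPM (-0.32, adjusted p = 0.037; SD, n = 6 per group, edgeR's quasi-likelihood test throughout). Of the 39 further replication genes in the list, 0 were called by this test, by DESeq2 or by limma-voom, 2 had an unadjusted p under 0.05 and 27 had a negative value. Of the 61 further mitosis genes tested, 2 fell. None of the 143 was called with an absolute log2 fold change above 0.5. With the adjustment for GC content and gene length 0 of the 143 were called, without a filter on low counts 2 (E2f6 and Plk4), and of the 5 genes only E2f6 was called within the libraries of higher background and only Kif20b within those of lower background.

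Marker genes of the cell types that can divide in such a culture differed between the groups. Of 17 tested markers of homeostatic astrocytes, 16 rose (the exception was Ntsr2), with a median log2 fold change of 1.25. Their summed level was 2196 to 2769 CPM in control and 5273 to 5874 CPM in *Neuid* KD, led by the glutamate transporter gene Slc1a2 (0.63), Apoe (2.28) and Slc1a3 (1.25). Of 10 markers of neural progenitors and radial glia, 7 rose and 2 fell. Among its most abundant members Fabp7 rose from a mean of 257 to 727 CPM and Nes from 98.5 to 151 CPM, while the intermediate filament gene Vim fell from 555 to 332 CPM, and the sum went from 927 to 1047 CPM in control to 1231 to 1406 CPM in *Neuid* KD. Several of these markers are shared with astrocytes.

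Of 9 markers of oligodendrocyte precursors, 4 rose, with a sum of 223 to 260 CPM in control and 406 to 442 CPM in *Neuid* KD and with values of 1.47 for Olig1, 0.31 for Vcan and 0.15 for Tnr, the last of which did not pass the test. Pdgfra and Cspg4, which define these precursors, did not pass the test (0.44 and 0.16). Of 10 neuronal markers 1 rose, Nefm (0.21), with a summed level of 6509 to 7666 CPM in control and 6343 to 7726 CPM in *Neuid* KD. The most abundant of them, Map2, Stmn2 and Nefl, were at -0.01, -0.07 and 0.09. Neuronal transcripts, which the label names, were thus abundant in both groups beside glial ones. The part of the glial and progenitor markers in the changes of Ccnd2, Cdkn2c, Mcm6 and Cdkn1a was not tested.

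The other cell types had low levels. Of 4 tested microglial markers (of 8, with Aif1, Csf1r and Ptprc the highest), 5 endothelial markers (Kdr, Pecam1 and Flt1) and 9 fibroblast and mural cell markers (Dcn, Rgs5 and Col1a1), 0 were called in each list by edgeR's quasi-likelihood test, and 0 had an unadjusted p under 0.05. Their median log2 fold changes were -0.32, -0.30 and -0.68. Values were negative for 4 of 4, 5 of 5 and 7 of 9, beside 10880 of all 19578 tested genes. The sums of these lists were at most 13.8, 22.6 and 72.3 CPM in any library. The endothelial sum was 22.6 and 22.4 CPM in control replicates 1 and 4 and 22.1 CPM in *Neuid* KD replicate 1. Background reads there were 653, 579 and 604 CPM. In control replicates 3 and 5 and *Neuid* KD replicate 3 the endothelial sum was 8.77, 6.57 and 6.97 CPM. Background reads there were 26.0, 28.7 and 26.9 CPM. The part of the background reads in these values was not tested. The microglial markers C1qa, C1qb, P2ry12 and Tmem119 each averaged under 1 CPM. Of 4 tested markers of myelinating oligodendrocytes 1 fell, Mbp (-0.66), and Cnp was at 0.10.

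**Figure D4:**
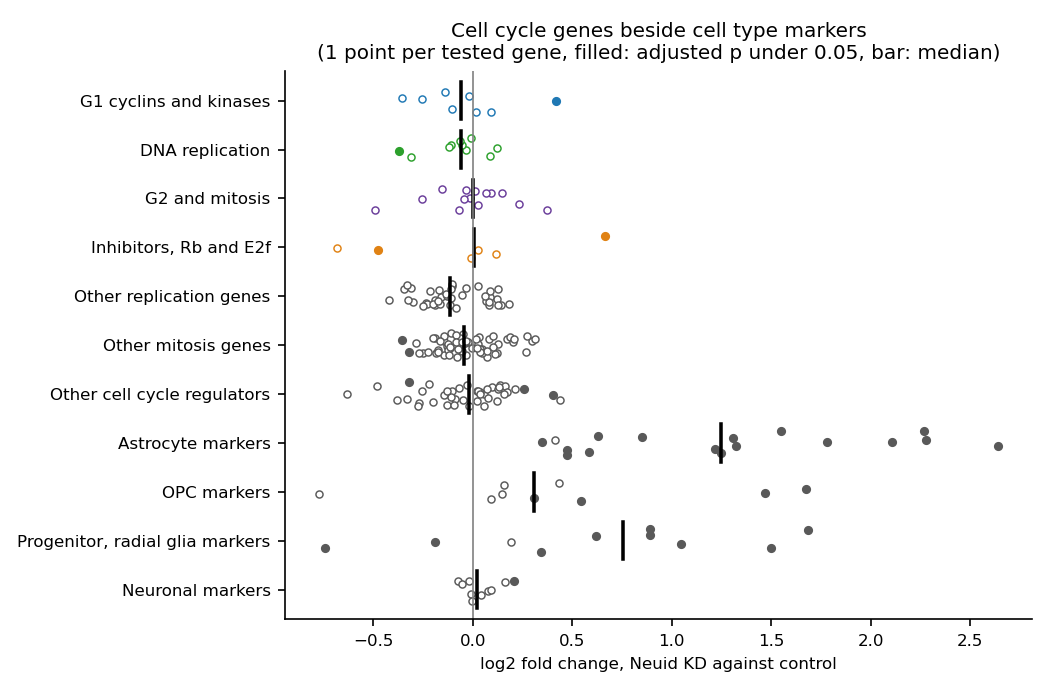
Log2 fold change of every tested gene, *Neuid* KD against control (6 libraries per group), in the role groups of the cell cycle genes, in the wider list and in the marker lists of 4 cell types. Mki67 is not drawn. Filled points have an adjusted p under 0.05 and black bars are medians. The cell cycle groups lie around 0 with medians between -0.11 and 0.01, and the astrocyte markers lie at positive values with a median of 1.25.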

How the data were processed

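The authors made libraries from total RNA with a stranded low-input kit, and their processing notes name bcl2fastq, STAR and the build GRCm38 (mm10). The study's methods name featureCounts, and the annotation release and strand setting are not given in the sources used here. The deposited values are raw counts per gene, and 55144 of 55471 gene identifiers were matched to GENCODE on GRCm38.

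Counts of 6 control and 6 *Neuid* KD libraries were filtered (filterByExpr), TMM-normalised and fitted with group as the only term in edgeR 4.0.16 (quasi-likelihood test, Benjamini-Hochberg adjustment over the 19578 tested genes, threshold 0.05), a script tested on simulated data. The authors used DESeq2 with RUVseq factors of unstated number, and both were run as alternatives, with limma-voom, other scalings and filters, a background covariate, GC and length offsets, a replicate block and each library left out. CPM were counts scaled to the TMM-normalised library size. No 2 libraries of a group agreed within sampling noise (lowest chi-square per degree of freedom 3.38).

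The members, gene lists, markers and the threshold of 100 CPM on background reads were chosen with earlier results of these data known. Values per library were given for called members, Mki67, Top2a and the highest member per length of each role, called genes of the wider list were named, and of each marker list the 3 genes of highest mean CPM were named, except 1 that is not reported here. Other marker genes in the text were chosen after their values were seen, as were Mcm5 (near the threshold), Trp53 and Mdm2. Promoter windows came from RefSeq on GRCm38.p6.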

Additional observations from a re-analysis of the deposited data

Results flagged for a closer look

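In 92 groups of 6 libraries examined (the 39 genes, *Neuid* and the summed levels, in control and in *Neuid* KD), 2 held a library that stood apart by Dixon's test, where chance gives about 1 group in 20. Cdk4 was at 35.0 CPM in *Neuid* KD replicate 6, below the other 5 libraries of its group at 42.5 to 44.9 CPM. Plk1 was at 4.55 CPM in *Neuid* KD replicate 1, above the other 5 at 3.28 to 3.72 CPM. Neither gene was called, and neither was called in any fit that left out 1 library.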

How the results depend on the processing

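The 39 genes were refitted under 14 other settings and with each of the 12 libraries left out. Of 1014 refitted values, 988 kept their side of the threshold, 9 lost a call, 17 gained one and 0 called values changed sign, while 83 values of 19 genes had another sign without being called in either fit. The number of genes called (4) was 7 with 1 or 2 RUVs factors or the background covariate (Mcm5, Bub1b and Kif11 added), 0 with GC and length offsets, alone or with the replicate block, 1 with the fold-change threshold of 0.5, and 4 to 5 with a library left out. For the wider list (5) it was 8 and 8 with RUVs factors, 8 with the covariate, 2 without a filter, 3 and 1 within libraries at or above and under 100 CPM of background, 0 with the offsets or the block and offsets, 0 with the fold-change threshold, and 4 to 8 with a library left out, the 8 being without *Neuid* KD replicate 1. For all genes (1708) it was 2744 and 2636 with 1 and 2 RUVs factors, 2762 with the covariate and 940 without a filter. Within libraries at or above 100 CPM it was 856, and within those under 100 CPM 1909. The offsets gave 345, the block and offsets 374 and the fold-change threshold 632. With a library left out it was 1177 to 1988. The causes were not tested. Upper-quartile scaling called 1049 higher and 1259 lower genes, against 1235 and 473, and moved the median of all genes by 0.06.

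The replicate block alone called 4 of the 39 genes, the same 4, with 6 of the wider list and 1841 of all genes. Whether replicate numbers pair the libraries could not be decided. The deviations of same-numbered libraries correlated above 0.1 in 2 of 6 pairs, replicates 1 and 3. Those pairs were also alike in background reads (653 and 604 CPM, and 26.0 and 26.9 CPM). A shared preparation and a shared background cannot be told apart in these correlations. Depth was lowest at 11152556 counts in a library, and Cdkn1c had the fewest counts of the 39 genes. The log2 fold change of *Neuid* was between -1.93 and -1.74 under every alternative.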
